A study of Mus musculus with 4 samples.

Results

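Axon guidance ligands and receptors were described in open chromatin of sorted inhibitory neuron nuclei from mouse cortex and hippocampus. The group was defined by gene symbol and comprised the semaphorins, plexins, Slits, Robo receptors, netrins and netrin-Gs, Dcc and Unc5 receptors, ephrins and Eph receptors. It held 69 of the 21884 protein-coding genes of the GRCm38 annotation. All mice carried Dlx6aCre, a Cre line active in forebrain inhibitory neurons and their precursors, and the Sun1/sfGFP nuclear envelope reporter, and were taken at postnatal day 30. Nuclei positive for DAPI and GFP were sorted and profiled with a 10x Genomics single-nucleus assay for transposase-accessible chromatin, in 2 cortex and 2 hippocampus libraries. There was no treatment and no reporter-negative control. The labels did not say that the libraries came from separate animals. The p-values for tissue below measure the spread between these libraries. Those for classes of nuclei within libraries measure how far the class difference varies from library to library. Either variation may be technical.

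Guidance ligands are secreted or membrane-bound proteins that attract or repel a growing axon or a migrating neuron through receptors on its surface. Semaphorins signal through plexins, with neuropilins as co-receptors for most secreted class 3 members. Slits repel through Robo receptors, netrins attract through Dcc and repel through Unc5 receptors, and ephrins bind Eph receptor tyrosine kinases on neighbouring cells. The same molecules steer interneurons from the ganglionic eminences to the cortex and hippocampus in the embryo, and many continue to act at synapses in the adult.

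Each value below is a count of transposase cut sites in those peaks of a library that touch the gene or the 2 kb before it, scaled to the total of the same nuclei and called CPM. It measures open chromatin at a gene, not its RNA. Each library has its own peaks, and a gene without a peak in a library is listed at 0 there. The libraries held 2355 to 5576 nuclei, with a median of 7352 to 47236 cut sites per nucleus, and both extremes of depth were cortex libraries. Guidance genes received 0.465% to 0.615% of all cut sites, and 66 of the 69 genes had a peak in every library. Where 4 values follow each other, the first and second are cortex replicates 1 and 2 and the others hippocampus replicates 1 and 2. Fold changes are on the log2 scale and ± after them is the SE.

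Per kilobase of gene and upstream sequence, levels were low in long genes such as Sema3a and Dcc and high in short ones such as Ntn3 and Efna3. Among ligands, the median over the 4 libraries was highest for Ntn3, at 13.0 CPM per kb over 7.68 kb, and lowest for Sema3a, at 0.0538 CPM per kb over 479 kb. Semaphorins ranged up to 5.92 CPM per kb in Sema6c, and ephrins from 0.351 in Efna5 to 7.40 in Efna3. The Slits lay between 0.156 CPM per kb in Slit2 and 1.26 in Slit1, and the lowest netrin was Ntn1 at 0.141. Among receptors, Plxna1 led the plexins at 2.05 CPM per kb and Plxnb3 was lowest at 0.195, while the Robo receptors ran from 0.183 in Robo2 to 0.785 in Robo3. Unc5a had 1.49 CPM per kb and Dcc, spread over 1099 kb, had 0.0824. Ephb3 had the highest Eph receptor level at 4.26 CPM per kb. Ephb4 was listed at 0 in 3 of the 4 libraries and at 4.32 CPM in hippocampus replicate 1.

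The main comparison divided the nuclei of each library by their cut sites at Lhx6, a transcription factor gene of interneurons from the medial ganglionic eminence (MGE), and Adarb2, a gene of interneurons from the caudal ganglionic eminence (CGE). Lhx6-high nuclei had Lhx6 above and Adarb2 below the value expected from their depth, and Adarb2-high nuclei the reverse. A sum of 1 class in 1 library held 3704597 to 36482578 cut sites. The libraries gave 633 to 1386 Lhx6-high and 427 to 1391 Adarb2-high nuclei, and all others entered neither class. The gate was coarse where nuclei were shallow: cortex replicate 2 had a mean of 0.376 Lhx6 and 0.238 Adarb2 cut sites per nucleus. Hippocampus replicates 1 and 2 had means of 1.63 and 1.28 for Lhx6 and 2.18 and 1.18 for Adarb2. The median Lhx6 count was 0 in these libraries, against 6 in cortex replicate 1. Lhx6-high nuclei were deeper in each library, with medians of 50394.5, 8991, 14134 and 16611 cut sites. Adarb2-high nuclei had 45309, 8262, 12479 and 15700. Of 6 other MGE markers tested, 5 were higher in Lhx6-high nuclei, among them Sst (-1.40 ± 0.15, log2) and Sox6 (-0.62 ± 0.05). Lhx8 did not pass and leaned the other way (0.36 ± 0.40), and Nkx2-1 was not tested. Of 7 other CGE markers 5 were higher in Adarb2-high nuclei, among them Htr3a (1.23 ± 0.13) and Vip (2.45 ± 0.39), while Prox1 and Cnr1 did not pass. Vip was low in cortex and at 0 in both hippocampus libraries, so its difference rests on cortex alone. Of the 8 pan-GABA genes, Dlx1 alone differed. The oligodendrocyte list summed to 202 to 278 CPM in Lhx6-high and 169 to 276 CPM in Adarb2-high nuclei, and Mag alone of its 8 genes differed, higher in Adarb2-high nuclei (0.59 ± 0.18). The microglia list summed to 203 to 261 and 194 to 268 CPM, and Csf1r (-0.32 ± 0.07) and P2ry12 (-0.64 ± 0.15) of its 3 genes tested were higher in Lhx6-high nuclei. The part of these cells in the differences below was not tested. Both classes are mixtures, so fewer nuclei of a type and less open chromatin per nucleus cannot be told apart.

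Guidance genes differed between the classes in both directions. Of the 69 genes, 17 passed an adjusted p of 0.05 in edgeR's quasi-likelihood test with library as a term. The share over all 16919 genes tested was 8.81%. Of these 17, 11 were higher in Lhx6-high nuclei, against 4.75% of all genes in that direction, and 6 in Adarb2-high nuclei, against 4.06%. Differences were modest, from -0.51 to 0.35 on the log2 scale (Adarb2-high over Lhx6-high) among the genes called. The median over the 69 genes was 0.05, and over all genes 0.0013. Of 37 ligand genes, 7 were higher in Lhx6-high and 2 in Adarb2-high nuclei, while of 32 receptor genes 4 were higher in each. Whether ligands and receptors differ in this split was not tested. In 13 of the 17 genes the sign was the same in all 4 libraries, the others being Sema3a, Sema7a, Epha5 and Efna5. At an unadjusted p under 0.05 there were 25 guidance genes. DESeq2 also called 17, with Plxna4 in place of Efna5. The 52 genes not called had fold changes from -0.24 in Epha1 to 0.80 in Plxnb3.

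**Figure D1:**
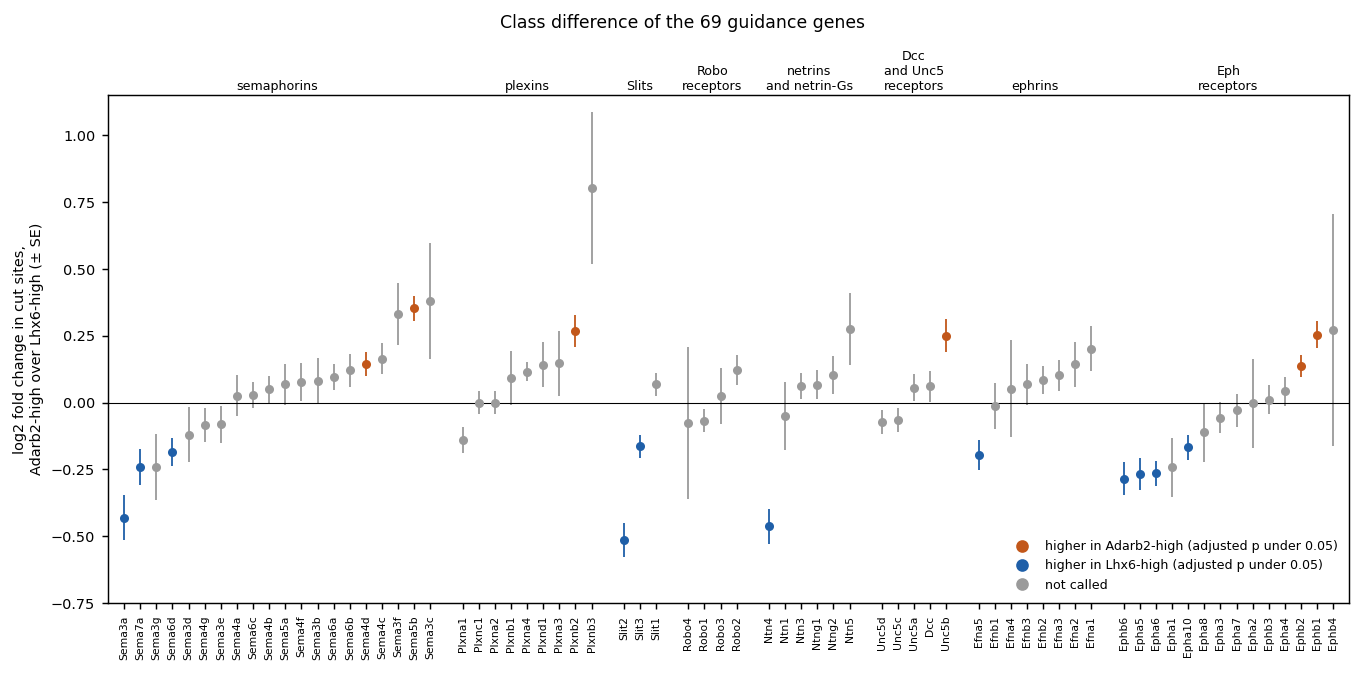
The y axis gives the log2 fold change in cut sites between Adarb2-high and Lhx6-high nuclei of each of the 69 guidance genes, with its SE from the edgeR fit on 8 sums, and genes on the x axis are ordered within families. The 11 blue genes, led by Slit2 at -0.51, were higher in Lhx6-high nuclei, and the 6 orange genes, led by Sema5b at 0.35, in Adarb2-high nuclei.

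Slit2, a secreted repellent of migrating interneurons and of many axons, had the largest difference of the 17. It had 88.8, 60.3, 54.6 and 64.5 CPM in Lhx6-high nuclei and 62.9, 38.1, 43.2 and 41.2 CPM in Adarb2-high nuclei. Lhx6-high nuclei were higher in every library, and the fold change was -0.51 ± 0.06 (adjusted p = 2.60e-05). Slit3 moved the same way by less, with 287, 186, 251 and 222 CPM in Lhx6-high nuclei and 258, 149.8, 232 and 205 CPM in Adarb2-high nuclei, a fold change of -0.16 ± 0.04 (adjusted p = 0.0170). Slit1, the member found mainly in the nervous system, had 182, 196, 158 and 177 CPM in Lhx6-high nuclei and 185, 192, 173 and 194 CPM in Adarb2-high nuclei. Its libraries did not share a direction, and the fold change of 0.07 ± 0.04 did not pass. None of the 4 Robo receptors passed in edgeR or DESeq2, and Robo2 alone had an unadjusted p under 0.05. Robo1 had 234, 146, 205 and 156 CPM in Lhx6-high nuclei and 209, 143, 196 and 158 CPM in Adarb2-high nuclei, a fold change of -0.07 ± 0.04. For Robo2 the values were 119, 49.2, 109 and 81.5 CPM in Lhx6-high nuclei and 144, 43.2, 115 and 88.0 CPM in Adarb2-high nuclei, and the fold change was 0.12 ± 0.06 (adjusted p = 0.217). Robo3, a Robo of commissural axons, and Robo4, an endothelial member, gave 0.02 ± 0.11 and -0.08 ± 0.28.

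Of the 20 semaphorins, 3 were higher in Lhx6-high nuclei, 2 in Adarb2-high nuclei and 15 did not pass. Sema3a, a secreted repellent that signals through neuropilin 1 and A-type plexins, had 82.8, 30.0, 31.9 and 15.8 CPM in Lhx6-high nuclei and 57.0, 18.6, 23.5 and 15.9 CPM in Adarb2-high nuclei. The classes were level in hippocampus replicate 2 and separated in the other 3 libraries, with a fold change of -0.43 ± 0.08 (adjusted p = 0.00264). Sema7a, a membrane-anchored ligand of Plxnc1 and integrins, had 127, 123, 66.2 and 91.7 CPM in Lhx6-high nuclei and 97.9, 106, 68.7 and 69.2 CPM in Adarb2-high nuclei. It was higher in Lhx6-high nuclei in 3 of the 4 libraries (-0.24 ± 0.07, adjusted p = 0.0338). Sema6d, a transmembrane semaphorin, was higher in Lhx6-high nuclei of every library, at 262, 164, 212 and 185 CPM in Lhx6-high nuclei and 226, 119.6, 193 and 183 CPM in Adarb2-high nuclei, with a fold change of -0.18 ± 0.05 (adjusted p = 0.0380). Sema5b, a transmembrane member with thrombospondin repeats, went the other way, with 99.1, 96.8, 76.1 and 97.3 CPM in Lhx6-high nuclei and 131, 119, 97.9 and 122 CPM in Adarb2-high nuclei. Its fold change of 0.35 ± 0.05 (adjusted p = 5.85e-05) was the largest towards Adarb2-high nuclei of the genes called. Sema4d, a ligand of B-type plexins, had 135, 189, 187 and 169 CPM in Lhx6-high nuclei and 141, 207, 225 and 183 CPM in Adarb2-high nuclei, higher in Adarb2-high nuclei of each library, with a fold change of 0.14 ± 0.04 (adjusted p = 0.0492). Sema3f, the neuropilin 2 ligand that repels MGE-derived interneurons from the striatum, had 18.7, 13.2, 11.3 and 16.4 CPM in Lhx6-high nuclei and 29.1, 12.7, 14.6 and 17.0 CPM in Adarb2-high nuclei. The gap was widest in cortex replicate 1 and absent in cortex replicate 2, and the fold change did not pass (0.33 ± 0.12, adjusted p = 0.0825). It passed in edgeR when only regions holding a peak of every library were counted (0.42 ± 0.12, adjusted p = 0.0206).

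Among the 9 plexins, Plxnb2, a receptor of class 4 semaphorins, passed the test. It had 41.9, 50.2, 68.6 and 49.0 CPM in Lhx6-high nuclei and 54.5, 63.7, 75.6 and 57.6 CPM in Adarb2-high nuclei, higher in Adarb2-high nuclei of every library (0.27 ± 0.06, adjusted p = 0.00610). The A-type plexins, which receive secreted and class 6 semaphorins, gave fold changes from -0.14 in Plxna1 to 0.15 in Plxna3. None passed in the main edgeR fit, where 2 (Plxna1 and Plxna4) had an unadjusted p under 0.05, and DESeq2 called Plxna4 (0.12 ± 0.04, adjusted p = 0.0528 in edgeR). In edgeR, Plxna1 passed when only regions holding a peak of every library were counted (-0.21 ± 0.05, adjusted p = 0.00185). Plxna4 passed in edgeR without nuclei low in pan-GABA signal (0.13 ± 0.04, adjusted p = 0.0375). Plxnc1, the Sema7a receptor, had a fold change of -0.00081 ± 0.04.

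Ntn4, a netrin of basement membranes, had the second largest difference towards Lhx6-high nuclei. It had 113, 57.0, 47.0 and 47.4 CPM in Lhx6-high nuclei and 74.0, 39.1, 39.4 and 35.2 CPM in Adarb2-high nuclei, with Lhx6-high nuclei above Adarb2-high nuclei in every library (-0.46 ± 0.07, adjusted p = 1.27e-04). Ntn1, the founding axon attractant, had 31.8, 22.2, 28.5 and 25.2 CPM in Lhx6-high nuclei and 30.8, 10.3, 29.7 and 29.5 CPM in Adarb2-high nuclei. Its direction varied between libraries and the fold change was -0.05 ± 0.13. The netrin-Gs, membrane-anchored relatives that act at synapses, gave 0.07 ± 0.06 for Ntng1 and 0.10 ± 0.07 for Ntng2. Of the netrin receptors, Unc5b passed, with 72.6, 63.0, 61.6 and 112 CPM in Lhx6-high nuclei and 98.2, 75.6, 74.3 and 114 CPM in Adarb2-high nuclei. It was higher in Adarb2-high nuclei of all 4 libraries, by little in hippocampus replicate 2 (0.25 ± 0.06, adjusted p = 0.0112). Dcc had 94.3, 44.2, 112 and 75.5 CPM in Lhx6-high nuclei and 95.5, 37.5, 118 and 88.4 CPM in Adarb2-high nuclei, a fold change of 0.06 ± 0.06. Unc5c had 140.0, 84.3, 200.2 and 212 CPM in Lhx6-high nuclei and 145, 77.5, 189 and 192 CPM in Adarb2-high nuclei, a fold change of -0.06 ± 0.05. Unc5d had 151, 76.5, 326 and 217 CPM in Lhx6-high nuclei and 156, 67.5, 301 and 203 CPM in Adarb2-high nuclei, a fold change of -0.07 ± 0.04. Neither Dcc nor these 2 Unc5 genes passed, nor did Unc5a (0.06 ± 0.05).

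**Figure D2:**
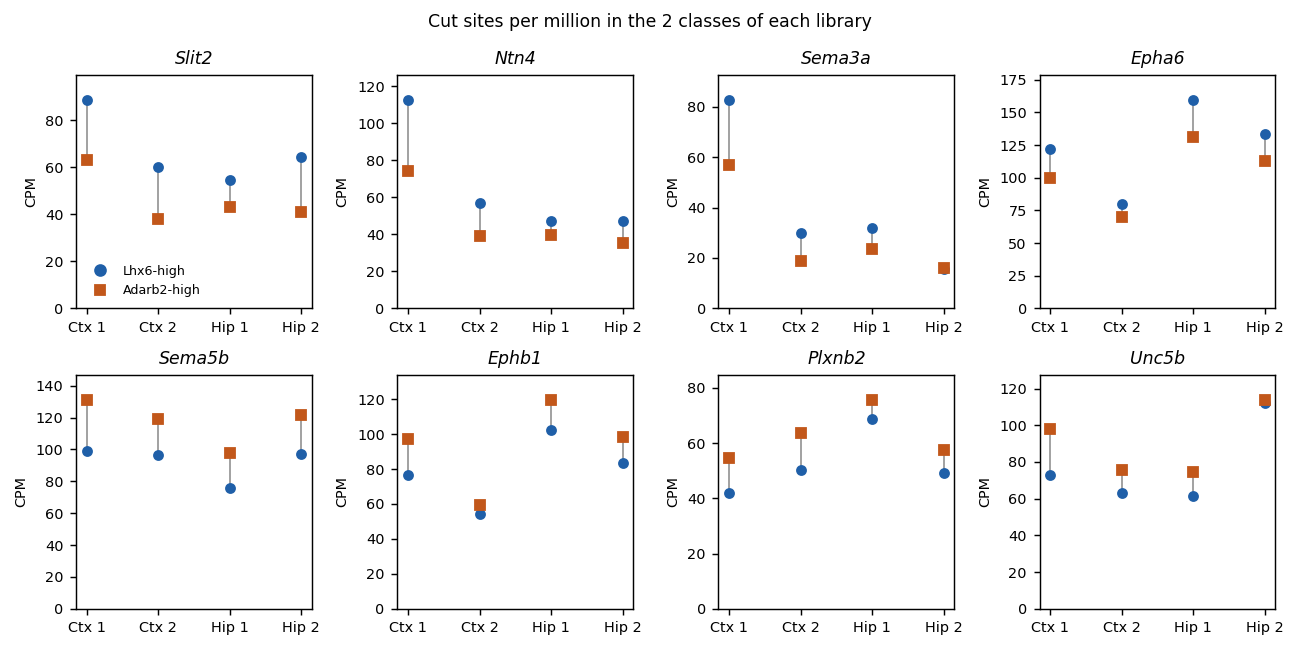
Each panel gives the CPM of a gene in Lhx6-high nuclei (blue circles) and Adarb2-high nuclei (orange squares) of the 4 libraries on the x axis, with a line joining the classes of a library. Slit2, Ntn4 and Epha6 were higher in Lhx6-high nuclei of every library, Sema3a in 3 of 4, and Sema5b, Ephb1, Plxnb2 and Unc5b were higher in Adarb2-high nuclei of every library.

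Of the 14 Eph receptors, 4 were higher in Lhx6-high and 2 in Adarb2-high nuclei. The called A-type receptors, Epha5, Epha6 and Epha10, were higher in Lhx6-high nuclei. Of the called B-type receptors, Ephb1 and Ephb2 were higher in Adarb2-high nuclei and Ephb6 in Lhx6-high nuclei. Epha6 had 122, 80.2, 159.8 and 133 CPM in Lhx6-high nuclei and 99.7, 70.2, 131 and 113 CPM in Adarb2-high nuclei (-0.27 ± 0.05, adjusted p = 7.22e-04). Epha5, a receptor of ephrin-A ligands in forebrain projections, had 113, 83.5, 93.2 and 91.7 CPM in Lhx6-high nuclei and 95.0, 85.0, 67.8 and 76.0 CPM in Adarb2-high nuclei. The classes were level in cortex replicate 2 and separated in the other libraries (-0.27 ± 0.06, adjusted p = 0.00612). Epha10 and Ephb6 both lack kinase activity. Epha10 had 113, 121, 86.4 and 119 CPM in Lhx6-high nuclei and 99.0, 104, 81.1 and 105 CPM in Adarb2-high nuclei (-0.17 ± 0.05, adjusted p = 0.0292). Ephb6 had 62.0, 57.7, 38.3 and 63.9 CPM in Lhx6-high nuclei and 48.3, 53.7, 32.9 and 49.7 CPM in Adarb2-high nuclei (-0.28 ± 0.06, adjusted p = 0.00604). Both were higher in Lhx6-high nuclei of every library. Ephb1 had 76.4, 54.5, 102 and 83.6 CPM in Lhx6-high nuclei and 97.2, 59.7, 119.6 and 98.4 CPM in Adarb2-high nuclei, higher in Adarb2-high nuclei throughout (0.25 ± 0.05, adjusted p = 0.00264). Ephb2, with 189, 179, 168 and 165 CPM in Lhx6-high nuclei and 203, 199, 185 and 185 CPM in Adarb2-high nuclei, was higher in Adarb2-high nuclei of every library by less (0.14 ± 0.04, adjusted p = 0.0385). Of the 8 ephrins, Efna5, a membrane-anchored repellent, passed. It had 187, 63.0, 109.8 and 108 CPM in Lhx6-high nuclei and 158, 69.6, 88.7 and 94.1 CPM in Adarb2-high nuclei, higher in Lhx6-high nuclei of every library but cortex replicate 2 (-0.20 ± 0.06, adjusted p = 0.0293). Efna5 did not pass in edgeR when only regions holding a peak of every library were counted (-0.15 ± 0.06, adjusted p = 0.0790).

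Sema5b, Ephb1, Slit2, Ntn4 and Epha6 were the 5 genes called when any of the 4 libraries was left out, and also those called in each tissue alone. Ephb2 was lost whichever library was left out, and the other 11 genes were lost in 1 to 3 of the 4 fits. Counting peaks within 2 kb of the gene start called 9 guidance genes, among them 6 of the 17, namely Epha5, Epha6, Ephb6, Ntn4, Sema5b and Slit2. The share over all gene starts tested was 4.59%.

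To locate the differences within genes, the same 8 sums were tested in 46692 merged peak regions present in every library. The guidance genes held 289 such regions in 66 genes, with a median width of 1187 bp. Of these, 75 differed between the classes, where 20.2% of all regions did. Of the 75, 38 were higher in Adarb2-high nuclei (9.53% of all regions) and 37 in Lhx6-high nuclei (10.6%). Near gene starts, within 2 kb, 6 of 64 regions passed, against 7.01% of all regions near a start. Away from starts 69 of 225 passed, against 24.5% of all such regions. The median size of the called differences was 0.25 (log2) near starts and 0.71 elsewhere. By position, 53 of 168 intronic regions passed, 13 of 79 in coding exons and 9 of 35 in noncoding exons. The shares of all regions by these positions were not computed, so this split is not read as particular to guidance genes.

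Regions showed differences that the sums over whole genes did not. A called region lay in 35 genes, 19 of which were not called as genes, and in 10 genes called regions went in both directions. These 10 were Plxna2, Plxna4, Plxnc1, Robo1, Sema4a, Sema4d, Sema6d, Slit3, Unc5c and Unc5d, of which Sema4d, Sema6d and Slit3 were also called as genes. The shares of all genes with such regions were not computed. Since 20.2% of all regions were called, these counts are not read as particular to guidance genes. Plxna2, whose whole-gene fold change was -0.00027 ± 0.04, held the largest among called regions. The intronic region chr1:194746734-194747348 of Plxna2, 129 kb from the gene start, had 2.19, 2.17, 3.14 and 3.76 CPM in Lhx6-high nuclei and 10.0, 12.7, 8.85 and 11.1 CPM in Adarb2-high nuclei. Every Adarb2-high value lay above every Lhx6-high value, and the fold change was 1.91 ± 0.20 (adjusted p = 2.00e-05). A second Plxna2 region at chr1:194681968-194682451 was also higher in Adarb2-high nuclei (1.01 ± 0.28), while 3 others were higher in Lhx6-high nuclei, with fold changes from -0.46 to -0.63.

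Robo1 held 6 called regions of 11. The region chr16:72510527-72511191 was higher in Adarb2-high nuclei, with 2.74, 1.50, 6.03 and 4.56 CPM in Lhx6-high nuclei and 9.12, 5.94, 9.93 and 8.32 CPM in Adarb2-high nuclei (1.25 ± 0.21, adjusted p = 7.79e-04). Of the other 5, 4 were higher in Lhx6-high nuclei, the largest at chr16:72914096-72914737 (-0.73 ± 0.22). In Robo2 the intronic region chr16:74089822-74090387, 322 kb from the start, had 1.45, 3.50, 2.21 and 1.84 CPM in Lhx6-high nuclei and 7.16, 7.56, 4.86 and 3.99 CPM in Adarb2-high nuclei. Adarb2-high nuclei were higher in every library (1.52 ± 0.25, adjusted p = 6.23e-04). Slit1 held 3 called regions of 14, all higher in Adarb2-high nuclei. Its region chr19:41737881-41739843, 4.80 kb from the start, had 7.95, 13.0, 14.9 and 19.2 CPM in Lhx6-high nuclei and 22.4, 26.5, 28.9 and 35.9 CPM in Adarb2-high nuclei (1.14 ± 0.11, adjusted p = 1.35e-05). Slit2 was called instead at its start, in chr5:47982229-47986746, with 56.0, 51.0, 26.5 and 43.6 CPM in Lhx6-high nuclei and 38.6, 29.7, 20.0 and 28.1 CPM in Adarb2-high nuclei (-0.54 ± 0.07, adjusted p = 1.13e-04).

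Sema5b held 4 called regions, all higher in Adarb2-high nuclei. The largest, the intronic chr16:35596559-35597115, had 1.81, 2.83, 1.76 and 2.16 CPM in Lhx6-high nuclei and 7.32, 10.3, 5.07 and 6.20 CPM in Adarb2-high nuclei (1.77 ± 0.21, adjusted p = 5.26e-05). The neighbouring chr16:35598823-35600687 had 2.19, 12.8, 2.94 and 6.95 CPM in Lhx6-high nuclei and 12.3, 17.3, 7.71 and 11.1 CPM in Adarb2-high nuclei (1.31 ± 0.34, adjusted p = 0.0388). Peaks covered 55.7%, 55.0%, 29.1% and 62.8% of this second region, and no base lay in the peaks of more than 3 libraries. Its values thus count partly different stretches. The region at the gene start gave 0.39 ± 0.10. Sema6d held 4 regions higher in Lhx6-high and 2 higher in Adarb2-high nuclei. Its intronic region chr2:124291079-124291680 had 7.21, 9.17, 7.75 and 3.44 CPM in Lhx6-high nuclei and 3.50, 8.64, 3.29 and 0.815 CPM in Adarb2-high nuclei (-1.01 ± 0.24, adjusted p = 0.00754). A second at chr2:124404206-124405162 had 8.06, 6.33, 9.61 and 8.47 CPM in Lhx6-high nuclei and 3.50, 3.78, 5.77 and 4.16 CPM in Adarb2-high nuclei, lower in Adarb2-high nuclei of every library (-0.92 ± 0.18, adjusted p = 0.00177). Unc5d was not called as a gene, but its intronic region chr8:28930613-28931305 had 7.76, 12.5, 8.19 and 6.55 CPM in Lhx6-high nuclei and 4.56, 4.59, 2.59 and 3.51 CPM in Adarb2-high nuclei. This was the largest called region difference towards Lhx6-high nuclei (-1.12 ± 0.20, adjusted p = 9.29e-04). The Epha6 region chr16:59693136-59693753, 912 kb into the gene, had 7.67, 2.67, 8.09 and 7.27 CPM in Lhx6-high nuclei and 4.05, 1.62, 3.02 and 3.99 CPM in Adarb2-high nuclei (-1.01 ± 0.20, adjusted p = 0.00208). Ntn4 and Ephb1 each held 1 called region in the direction of the whole gene, Ntn4 at chr10:93688208-93689386 (-0.87 ± 0.13, adjusted p = 3.75e-04) and Ephb1 at chr9:102138334-102139396 (0.62 ± 0.18, adjusted p = 0.0202). Epha5 was the 1 gene called as a whole that held no called region. Coverage by peaks was partial in other named regions too. Peaks of cortex replicate 2 covered 15.5% of this Epha6 region, 35.3% of the Robo2 region and 35.7% of the second Sema6d region. They covered 42.7% of the first Sema5b region, 44.0% of the Unc5d region and 58.2% of the Plxna2 region. Peaks of hippocampus replicate 2 covered 36.5% of the first Sema6d region. These values too count partly different stretches. Without hippocampus replicate 1, the second Sema5b region (adjusted p = 0.138) and the first Sema6d region (adjusted p = 0.0579) no longer passed, and the other 6 of these 8 leading regions did.

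**Figure D3:**
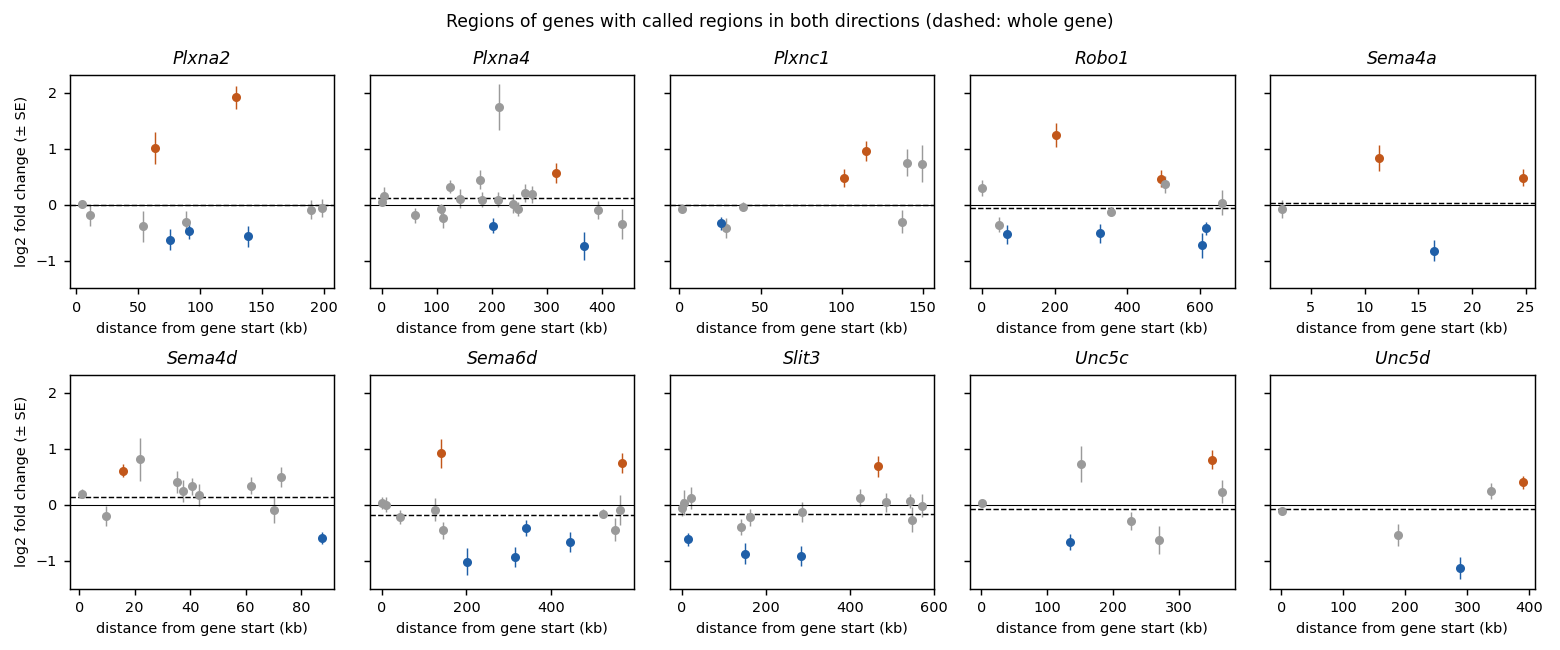
Each panel is a gene with called regions in both directions, with the distance of a region from the gene start in kb on the x axis and the log2 fold change of Adarb2-high over Lhx6-high nuclei with its SE on the y axis. Orange and blue points are regions called higher in Adarb2-high and in Lhx6-high nuclei, grey points were not called, and the dashed whole-gene value stays near 0 in Plxna2 and Robo1 while regions reach 1.91 and 1.25.

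The reference sequence (GRCm38.p6, RefSeq, plus strand, 5′ to 3′) of 6 of these regions is shown, in windows of 300 bp centred on the stretch that the peaks of all 4 libraries cover. Among called regions, they had the largest differences in 3 genes per direction. A Plxna4 region with 1.74 ± 0.41 was not called (adjusted p = 0.0583). Capitals mark matches, on either strand, to the 5 motifs searched: TAATTA (homeodomain), AACAAT (SOX), AGGTCA (nuclear receptor half-site), TGACTCA (AP-1) and CAGCTG (E-box). The first 3 regions were higher in Adarb2-high nuclei, at chr1:194746905-194747204, chr16:35596698-35596997 and chr16:74090012-74090311. The last 3 were higher in Lhx6-high nuclei, at chr8:28930823-28931122, chr2:124291242-124291541 and chr16:59693283-59693582.
Plxna2: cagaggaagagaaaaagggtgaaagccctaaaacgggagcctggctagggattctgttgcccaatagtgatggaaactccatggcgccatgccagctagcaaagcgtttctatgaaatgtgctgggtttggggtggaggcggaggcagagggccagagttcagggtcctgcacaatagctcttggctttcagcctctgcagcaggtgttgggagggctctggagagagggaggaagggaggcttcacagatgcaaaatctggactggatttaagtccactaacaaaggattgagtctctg
Sema5b: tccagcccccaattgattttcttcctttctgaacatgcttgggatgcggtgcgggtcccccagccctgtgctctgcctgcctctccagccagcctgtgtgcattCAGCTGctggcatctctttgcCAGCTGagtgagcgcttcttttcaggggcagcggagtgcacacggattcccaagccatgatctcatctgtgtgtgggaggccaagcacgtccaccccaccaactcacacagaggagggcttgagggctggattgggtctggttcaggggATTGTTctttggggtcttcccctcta
Robo2: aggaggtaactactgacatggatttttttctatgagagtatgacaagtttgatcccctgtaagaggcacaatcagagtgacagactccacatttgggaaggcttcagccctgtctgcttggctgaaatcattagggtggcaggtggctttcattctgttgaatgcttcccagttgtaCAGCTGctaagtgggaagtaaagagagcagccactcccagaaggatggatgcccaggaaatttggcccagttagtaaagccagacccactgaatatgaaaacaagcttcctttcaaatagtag
Unc5d: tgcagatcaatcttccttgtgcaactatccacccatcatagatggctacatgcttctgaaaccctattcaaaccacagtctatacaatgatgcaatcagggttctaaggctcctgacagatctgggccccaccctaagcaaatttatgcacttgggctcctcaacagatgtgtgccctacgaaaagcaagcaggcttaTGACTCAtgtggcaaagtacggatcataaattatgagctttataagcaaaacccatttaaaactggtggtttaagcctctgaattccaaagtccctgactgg
Sema6d: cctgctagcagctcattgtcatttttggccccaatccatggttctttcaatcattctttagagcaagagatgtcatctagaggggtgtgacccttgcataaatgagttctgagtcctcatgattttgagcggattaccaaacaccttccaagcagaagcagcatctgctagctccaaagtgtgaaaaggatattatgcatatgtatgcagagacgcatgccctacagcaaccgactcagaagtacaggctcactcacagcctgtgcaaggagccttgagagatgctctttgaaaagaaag
Epha6: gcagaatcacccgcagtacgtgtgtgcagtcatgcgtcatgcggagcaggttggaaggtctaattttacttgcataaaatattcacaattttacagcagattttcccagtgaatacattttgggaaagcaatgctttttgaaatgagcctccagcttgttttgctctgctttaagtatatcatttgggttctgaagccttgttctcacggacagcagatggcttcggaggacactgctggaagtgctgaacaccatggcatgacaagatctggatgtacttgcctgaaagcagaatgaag

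The Sema5b window held 2 CAGCTG matches and an AACAAT match on the minus strand, the Robo2 window a CAGCTG match and the Unc5d window a TGACTCA match. The windows of Plxna2, Sema6d and Epha6 held none. Over all called guidance regions, CAGCTG occurred in 22 of 37 windows higher in Lhx6-high nuclei (59.5%) and 12 of 38 higher in Adarb2-high nuclei (31.6%). Over the whole genome the shares were 51.2% and 36.1% of the regions called in these directions, and 32.0% of all 46698 common regions. Of all 289 guidance regions 34.9% held it, and of the 214 not called 31.3%. TGACTCA occurred in 6 of 37 and 3 of 38, against 20.0% and 7.37% genome-wide. For AGGTCA the counts were 9 of 37 and 5 of 38, against 11.2% and 9.73%. TAATTA was found in 2 of 37 and 5 of 38, against 9.62% and 11.2%, and AACAAT in 2 of 37 and 3 of 38, against 8.63% and 14.0%. Of all common regions, 9.38% held TGACTCA, 12.1% AGGTCA, 6.06% TAATTA and 8.04% AACAAT. The median GC content was 46.7% in guidance windows higher in Lhx6-high nuclei and 55.5% in those higher in Adarb2-high nuclei, against 47.3% and 51.3% genome-wide and 52.3% in all common regions. Its part in the motif counts was not tested.

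Whether the class difference itself differed between hippocampus and cortex was tested with an interaction term. None of the 69 genes passed in edgeR, where 0.632% of all genes did. By DESeq2 0 passed, and 6 genes had an unadjusted p under 0.05 in edgeR and 3 in DESeq2. The smallest p-values towards a higher class difference in hippocampus were those of Sema5a, Sema6d and Sema6a, none of which passed. For Sema5a the class difference was -0.09 in cortex and 0.22 in hippocampus, and the interaction was 0.30 ± 0.10 (unadjusted p = 0.00493, adjusted p = 0.235). Of the alternatives run, it passed only without cortex replicate 1, and it fell to 0.08 over regions present in every library. For Sema6d the class difference was -0.30 in cortex and -0.07 in hippocampus, with an interaction of 0.23 ± 0.08 (unadjusted p = 0.00666, adjusted p = 0.273), and for Sema6a it was 0.00025 in cortex and 0.19 in hippocampus, with an interaction of 0.19 ± 0.08 (unadjusted p = 0.0258, adjusted p = 0.483). In edgeR on hippocampus alone the class difference passed for Sema5a (adjusted p = 0.00612) and Sema6a (adjusted p = 0.0107). On cortex alone it passed for Sema6d (adjusted p = 0.00128). In the other direction the smallest were Unc5b at -0.23 ± 0.11 (unadjusted p = 0.0341, adjusted p = 0.541), Epha5 at -0.20 ± 0.10 (unadjusted p = 0.0550, adjusted p = 0.647) and Efnb2 at -0.19 ± 0.10 (unadjusted p = 0.0584, adjusted p = 0.655).

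Cortex and hippocampus were also compared over all nuclei, with 2 libraries each. None of 68 guidance genes tested (all but Ephb4) passed in edgeR, where 1 of 16277 genes (0.00614%) did. An unadjusted p under 0.05 was reached by 2 guidance genes, and DESeq2 called 1, Plxnb3, where it called 0.928% of all genes. The libraries of the tissues did not overlap in 19 guidance genes, 9 higher in hippocampus and 10 higher in cortex, against 21.7% of all genes. The median SE of a fold change over the guidance genes was 0.32. Family medians of the fold change (hippocampus over cortex) ran from -0.07 in netrins and netrin-Gs to 0.57 in Dcc and Unc5 receptors, and the median over all genes was -0.01.

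The netrin receptors Unc5c and Unc5d were among the genes higher in both hippocampus libraries, without passing. Unc5d had 155, 70.5, 309 and 199.5 CPM, a fold change (hippocampus over cortex) of 1.24 ± 0.53 (unadjusted p = 0.0615). Unc5c had 146, 88.0, 194 and 202 CPM, a fold change of 0.81 ± 0.36 (unadjusted p = 0.0600). Over regions present in every library, which leaves out any region that lacks a peak in some library of either tissue, these became 0.33 ± 0.20 and 0.41 ± 0.20. The cause of the change was not tested. Plxnb1, a Sema4d receptor, had 23.2, 39.1, 42.4 and 43.3 CPM (0.57 ± 0.25, unadjusted p = 0.0585). Lower in both hippocampus libraries were Sema3e, the Plxnd1 ligand, at 60.9, 39.0, 28.1 and 28.2 CPM (-0.77 ± 0.31, unadjusted p = 0.0461), Sema7a at 116, 116, 69.8 and 87.4 CPM (-0.49 ± 0.22, unadjusted p = 0.0645) and Ntn4 at 98.6, 48.7, 42.7 and 39.9 CPM (-0.79 ± 0.42, unadjusted p = 0.114). Over regions present in every library, Plxnb1, Sema3e, Sema7a and Ntn4 gave 0.63 ± 0.19, -0.60 ± 0.20, -0.39 ± 0.17 and -0.79 ± 0.30. None of these 6 genes passed after adjustment, and in 5 of them (all but Sema7a) one cortex library lay closer in CPM to a hippocampus library than to the other cortex library.

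Plxnb3, a plexin best known from oligodendrocytes, was listed at 0 in both cortex libraries, where it had no peak, and had 6.81 and 11.0 CPM in the hippocampus libraries. Without nuclei low in pan-GABA signal these were 4.22 and 5.07 CPM. In the classes, Plxnb3 had 0, 0, 3.24 and 5.92 CPM in Lhx6-high nuclei and 0, 0, 6.64 and 8.81 CPM in Adarb2-high nuclei. Its fold change of 0.80 ± 0.28, which rests on hippocampus alone, did not pass in the fit on all libraries (adjusted p = 0.0937). In the edgeR fit on the hippocampus libraries alone it passed (0.81 ± 0.23, adjusted p = 0.00866). The oligodendrocyte list summed to 276 and 203 CPM in cortex and 288 and 306 CPM in hippocampus. Of its 8 genes, 6 were higher in both hippocampus than in both cortex libraries, and Sox10, a defining marker, was at 0 in both cortex libraries. The part of oligodendrocyte nuclei in the Plxnb3 values was not tested.

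**Figure D4:**
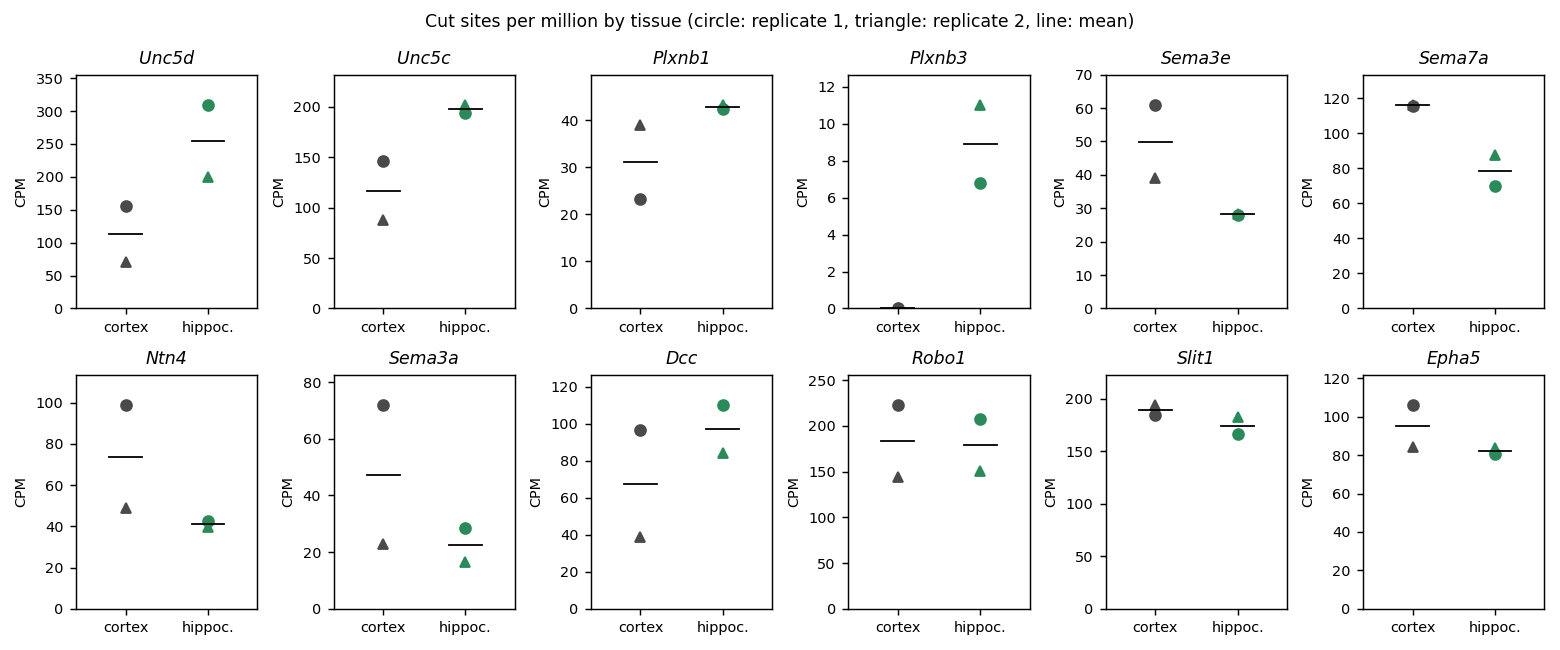
Each panel gives the CPM of a gene over all nuclei of a library, with circles for replicate 1, triangles for replicate 2 and a line at the mean of each tissue. Unc5d, Unc5c, Plxnb1 and Plxnb3 were higher in both hippocampus libraries and Sema3e, Sema7a and Ntn4 in both cortex libraries, while no gene shown passed the edgeR test.

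The remaining genes of interest were close between tissues or varied within cortex. Slit1 had 184, 194, 166 and 183 CPM and Epha5 106, 84.5, 80.7 and 83.6 CPM. Both were slightly lower in both hippocampus libraries, with fold changes of -0.03 ± 0.25 and -0.14 ± 0.26. Dcc had 96.8, 38.6, 110.0 and 84.5 CPM, Robo1 222, 144, 208 and 151 CPM and Robo2 127, 51.1, 109 and 81.8 CPM. In each of these 3 the cortex libraries differed from each other by more than the hippocampus libraries, and the fold changes were 0.57 ± 0.54, 0.04 ± 0.39 and 0.16 ± 0.54. Slit2, Slit3, Sema3a, Sema3f and Ntn1 gave -0.32 ± 0.32, 0.10 ± 0.39, -1.01 ± 0.73, -0.21 ± 0.44 and 0.21 ± 0.39.

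Co-receptors and cytoplasmic partners of these families were examined as a list of 40 other genes. Between the classes 4 were higher in Adarb2-high and 2 in Lhx6-high nuclei, against 4.06% and 4.75% of all genes, with a list median of 0.02. Vav2, a signalling protein acting downstream of Eph receptors, had 141, 154, 176 and 197 CPM in Lhx6-high and 187, 189, 204 and 228 CPM in Adarb2-high nuclei, a log2 fold change of 0.28 ± 0.04. Nrp2, the Sema3f co-receptor, had 68.1, 51.2, 163 and 202 CPM in Lhx6-high and 84.5, 52.4, 185 and 233 CPM in Adarb2-high nuclei, a log2 fold change of 0.21 ± 0.05. Dpysl5, a collapsin response mediator, and Draxin, a Dcc ligand, were also higher in Adarb2-high nuclei, by 0.17 ± 0.04 and 0.26 ± 0.07. Higher in Lhx6-high nuclei were Chl1, an adhesion molecule of the L1 family, with 158, 138, 147 and 159 CPM in Lhx6-high and 148, 113, 126 and 134 CPM in Adarb2-high nuclei, a log2 fold change of -0.20 ± 0.05, and Mical2, an actin-oxidising enzyme, with a log2 fold change of -0.17 ± 0.04. Enah, an actin regulator, had the next smallest p in this direction and did not pass (adjusted p = 0.131).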

How the data were processed

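Nuclei had been processed by the submitters with Cell Ranger ATAC 1.2.0 on GRCm38 (mm10), per their processing notes. The deposited matrices hold raw counts of cut sites per peak and barcode, with peaks called per library and no normalization by the authors. The deposited motif matrices were not used, and no doublet caller was run. Depth was 32005984 to 117290059 cut sites per library, and 11 to 47 barcode sequences were shared between pairs of libraries.

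Genes came from GENCODE release M21 (54 entries with shared symbols left out). A gene's value was the sum over peaks overlapping the gene body or 2 kb upstream, and a peak overlapping several genes counted for each. A nucleus was classed by whether its Lhx6 and Adarb2 counts lay above or below its total times the library's share. Counts were summed per library, or per library and class (8 sums), since nuclei are not replicates, and tested with edgeR 4.0.16 in R 4.3.3 (glmQLFit with robust estimation, glmQLFTest, two-sided, TMM factors, filterByExpr), with library as a term for class and without a block for tissue. P-values were adjusted by Benjamini-Hochberg over all genes or regions tested, with a threshold of 0.05. SE is the log2 fold change divided by the square root of F. DESeq2 1.42.0, other gates, filters, windows and leaving out each library were alternatives. Scripts were tested on simulated data.

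Named genes were, for class, the called genes with the same sign in every library (at most 12 per direction), and for tissue and interaction the 3 smallest p per direction. The highest and lowest member per kb of each family, 12 further genes (such as Dcc, Robo1 and Sema3a) and the 4 largest regions per direction were also named. Efna5 and Sema7a, called without a uniform sign, the plexins and regions beyond this rule, Draxin, and the remaining genes given with a value were added after their values were seen. Members, lists and motifs were chosen with earlier results of these data known.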

Additional observations from a re-analysis of the deposited data

How the results depend on the processing

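Between Adarb2-high and Lhx6-high nuclei the count of 17 guidance genes became 9 with peaks within 2 kb of the gene start, 11 in the cortex libraries alone and 0 with no library term, and 9 to 11 when a library was left out (9 without cortex replicate 1 or hippocampus replicate 2, 11 without cortex replicate 2 or hippocampus replicate 1). It stayed between 13 and 18 under the other alternatives, though not always with the same genes. In the hippocampus libraries alone, 10 of the 17 passed. Sema3c, Sema5a, Sema6a and Plxnb3 passed there without passing in the main fit. Sema4d, Epha10 and Ephb2 did not pass with the stricter gate given below, the gate on nuclei thinned to 5000 cut sites, or without nuclei low in pan-GABA signal. Plxnb2 did not pass with the thinned nuclei, nor Slit3 without nuclei low in pan-GABA signal. Unc5b turned from 0.25 to -0.0064 (log2) at its gene start, without passing there; the cause was not tested. The count of 75 regions became 47 with the stricter gate (at least 2 times the expectation for one gene and at most 0.5 times for the other), 27 of 92 where peaks of every library had to cover at least 50% of a region, so that fewer regions were tested, and 46 to 62 when a library was left out (46 without cortex replicate 1, 48 without hippocampus replicate 1). With the stricter gate 16 were higher in Adarb2-high and 31 in Lhx6-high nuclei, against 38 and 37. Among the leading regions named above, that of Plxna2 alone met the coverage of 50% in every library.

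Between tissues the count of 0 became 1 with DESeq2 and 0 to 1 when a library was left out, the gene being Plxnb3 (without cortex replicate 1). The interaction count of 0 became 0 to 2 when a library was left out, reaching 2 without cortex replicate 1. In these fits the lone library of a tissue is assumed to vary like the others. The replicate block left 0 guidance genes called. Samples of the same number deviated together with a correlation of 0.174. With 2 libraries a tissue both pairs must give this same value, so it is 1 value and not an agreement of 2 pairs. Nothing in the labels ties the replicate numbers.

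The tissue comparison is limited by 2 libraries a tissue and by the cortex libraries, whose depth and peak length differ (common dispersion 0.415, against 0.0034 for the class comparison within libraries).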
